A study of Homo sapiens with 6 samples.

Results

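The nuclear pore and nuclear transport genes were taken by symbol from a table of splicing events: the nucleoporins (NUP, TPR, AHCTF1 and NDC1), the exportins (XPO and CSE1L), the importins and transportins (IPO, KPNA, KPNB and TNPO), RAN with RANGAP1 and the RANBP genes, and the mRNA export genes (NXF1, NXT1 and THOC). An event counted as a member when each of the 6 libraries covered it with 10 or more reads and scored its coverage as LOW, OK or SOK, the table's own grades. By this rule 4155 events in 62 genes were members, of 304901 events in 10140 genes that met the same score and reads. A further 8 matching symbols, NUP62 and KPNA7 among them, had listed events but none that met the rule. The cells were SKNBE2, a human neuroblastoma line with amplified MYCN. DFMO (difluoromethylornithine) blocks ornithine decarboxylase, the first enzyme of polyamine synthesis. There were 3 DFMO libraries, from cells kept in 250 µM DFMO for 4 days, and 3 Control libraries; both groups shared the line, its medium and the MYCN amplification. The labels do not say that the libraries of a group came from separate cultures, so p-values measure the spread between these libraries, which may be technical.

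The nuclear pore complex is a ring-shaped channel through the nuclear envelope, built from scaffold nucleoporins (the Y complex and the inner ring), membrane anchors, cytoplasmic filaments and a nuclear basket. Its central channel is filled by nucleoporins with phenylalanine-glycine (FG) repeats, which transport receptors bind as they pass. Importins carry proteins in and exportins carry proteins and RNAs out, with direction set by the GTPase RAN, whereas bulk mRNA leaves through NXF1 and NXT1 after loading by the TREX complex, which holds the THO proteins. Proliferating cells make much of this machinery, and XPO1 and KPNA2 are known for high levels in tumours.

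Sums of event reads per library, in which 1 read may enter several events, spanned 82918379 to 100005273 in DFMO and 77648922 to 103250467 in Control. On exon log odds, principal component 1 (33.6% of the variance) had all DFMO libraries on one side and all Control libraries on the other. All 11 markers of noradrenergic neuroblastoma were measured, HAND2 and MYCN among them. Markers of blood (PTPRC, CD74) and epithelial cells (KRT8, EPCAM) had no exon event scored in every library, and neither had FN1, YAP1 and PRRX1 of the mesenchymal state; VIM and CD44 of that state did not pass the test (adjusted p = 0.0936 and 0.955). Values after ± are SD with n = 3 per group. Each adjusted p is from limma, and positions refer to GRCh38.

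With DFMO, reads over the splice junctions of many transport genes were fewer. The measure was a junction-read proxy of expression, the mean over a gene's exon events of log2 of 1 plus its reads scaled to 1e+06 event reads per library. Rising and falling were judged over all 9232 genes with a proxy, at an adjusted p below 0.05. Of the 60 member genes with a proxy, 30 fell, 1 rose (TNPO3) and 29 did not pass. That was 50% falling, against a background of 24.9% of all genes, and 1.67% rising, against 20.5%. All changes were small: 0 of 60 members reached 1.5-fold, a size passed by 0.347% of all genes. The member median was -0.09 on the log2 scale, against -0.01 for all genes. The 3 DFMO libraries lay wholly below the 3 Control libraries for 36 members (60.0%, against 30.2% of all genes) and wholly above for 3 members (5.0%, against 25.6%). With libraries scaled by a trimmed mean of M values, 27 fell and 1 rose, with a member median of -0.08. Since the proxy is a share of all event reads in bulk RNA, fewer cells of a type and less RNA per cell cannot be told apart. The proxy compares a gene between groups, not one gene's level with another's, and its pseudocount understates changes of low genes.

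**Figure D1:**
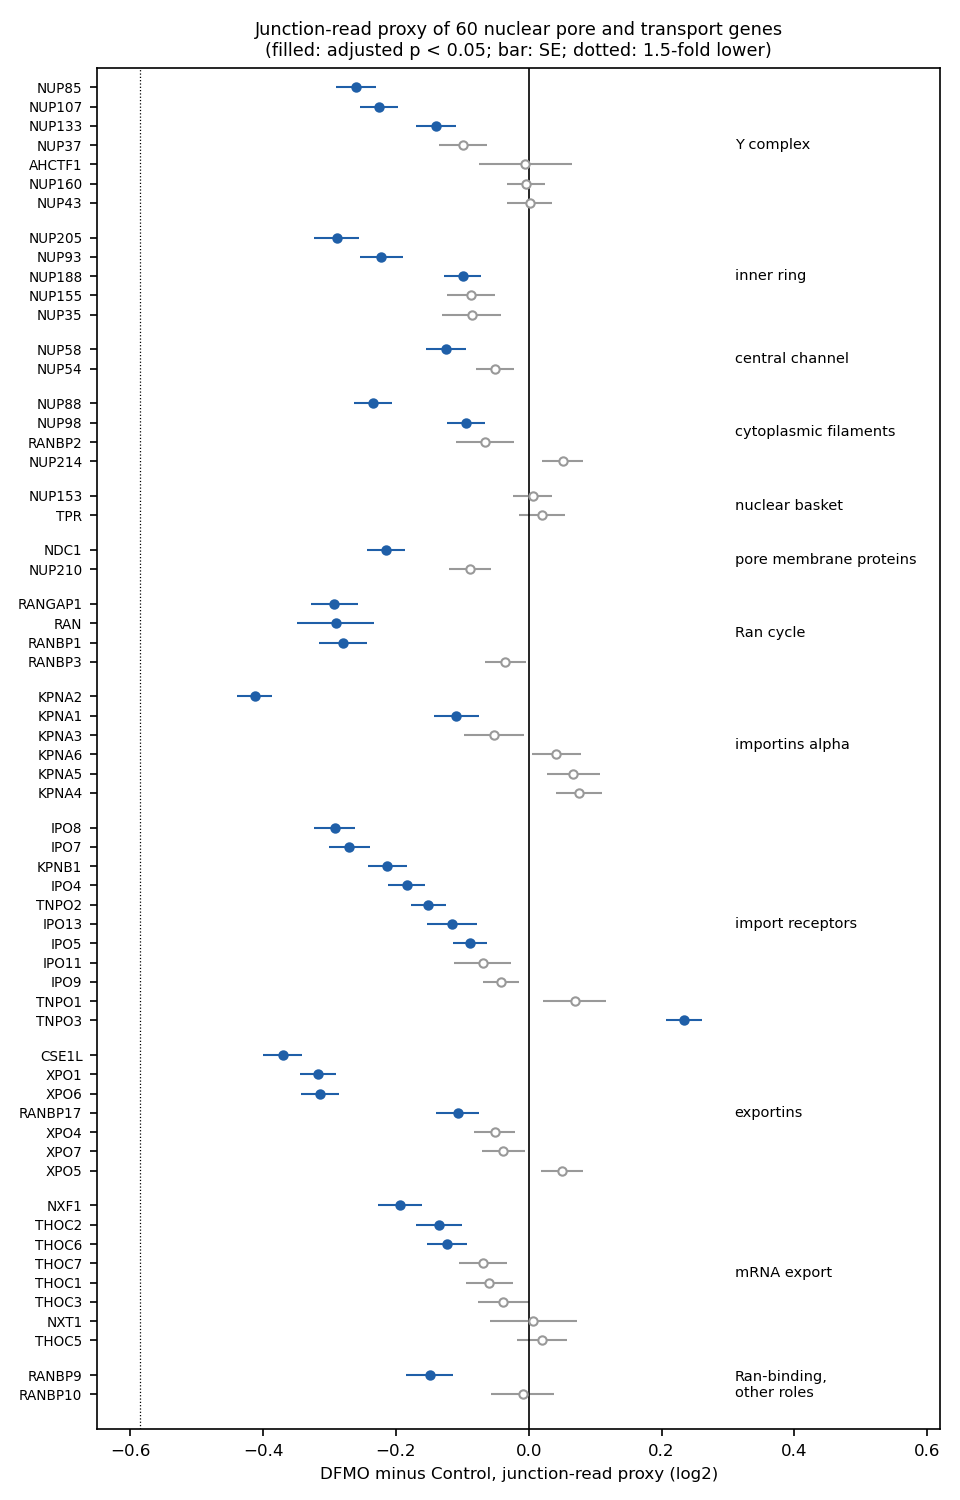
Difference of the junction-read proxy (DFMO minus Control, log2, x axis) for the 60 member genes with a proxy, grouped by role, with SE bars. Filled points passed an adjusted p below 0.05; 30 of them lie left of 0 and 1, TNPO3, lies right of it, and no point reaches the dotted line at 1.5-fold.

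Among the scaffold nucleoporins, 3 of 7 measured Y complex genes and 3 of 5 inner ring genes fell and none rose. Of all genes, 24.9% fell and 20.5% rose. Counts by role, here and below, are small and were not tested against these shares. The Y complex members that fell were NUP85 by 0.26, NUP107 by 0.23 and NUP133 by 0.14 on the log2 scale. In NUP85 the proxy was 2.20, 2.22 and 2.22 in the DFMO libraries, against 2.51, 2.46 and 2.44 in the Control libraries, so the groups were well apart (SE 0.03, adjusted p = 0.000236). NUP160 and NUP43 of the same complex were at -0.00 and 0.00 and did not pass. In the inner ring, which lines the channel, NUP205 fell by 0.29 (SE 0.03, adjusted p = 0.000272) and its binding partner NUP93 by 0.22, whereas NUP188 fell by 0.10 only. NUP188 was at 2.21, 2.22 and 2.26 in DFMO, against 2.31, 2.33 and 2.34 in Control (adjusted p = 0.0199); its call was lost without DFMO replicate 1 or 2 or Control replicate 2 or 3 (adjusted p from 0.0546 to 0.0702). NDC1, a membrane anchor of the pore, fell by 0.21 (adjusted p = 0.000545).

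The peripheral nucleoporins differed among themselves. NUP88, a cytoplasmic-face nucleoporin that binds NUP214 and NUP98, fell by 0.23 (SE 0.03, adjusted p = 0.000309), but NUP214 itself stood at 0.05 and did not pass (adjusted p = 0.2). NUP98, an FG nucleoporin found on both faces and known from leukaemia fusions, had 1.21, 1.19 and 1.19 in DFMO, against 1.27, 1.31 and 1.29 in Control. These groups did not overlap (log2 -0.09, SE 0.03, adjusted p = 0.0268), but the adjusted p was 0.0514 to 0.0812 when any library other than Control replicate 1 was left out. Both measured proteins of the nuclear basket stayed within the spread of the libraries. TPR, the basket's filament, had 2.31, 2.26 and 2.32 in DFMO and 2.22, 2.29 and 2.32 in Control (log2 0.02, adjusted p = 0.672). NUP153, which anchors it, had 1.73, 1.69 and 1.73 in DFMO and 1.69, 1.71 and 1.73 in Control (log2 0.01, adjusted p = 0.894). RANBP2, the SUMO ligase of the cytoplasmic filaments, differed by -0.07 (adjusted p = 0.257); reads of its near-identical RGPD copies may be split with it, so its value is uncertain. Of the central channel, NUP58 fell by 0.12 (adjusted p = 0.0104), and NUP54 differed by -0.05 (adjusted p = 0.171).

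Of 4 measured RAN cycle genes, 3 fell, beside 24.9% of all genes. RAN, the GTPase itself, had 2.30, 2.14 and 2.06 in DFMO, against 2.41, 2.47 and 2.49 in Control, a fall of 0.29 (SE 0.06, adjusted p = 0.00385) that rests on 1 exon event. RANGAP1, which switches on GTP hydrolysis at the pore's outer face, had 2.69, 2.65 and 2.65 in DFMO, against 2.94, 3.03 and 2.91 in Control. It also fell by 0.29 (SE 0.04, adjusted p = 0.000292), with its groups apart. RANBP1, the cofactor of RANGAP1, fell by 0.28 (adjusted p = 0.000458), and RANBP3, which assists XPO1, differed by -0.04 and did not pass. The promoter window of RAN, from 250 bases before to 50 after the start of the gene (RefSeq, GRCh38.p14, chr12:130871816-130872115, + strand), is printed because RAN fell and because the window holds the E-box CACGTG, shown in capitals. MYC family proteins are known to bind this palindrome.
RAN promoter window: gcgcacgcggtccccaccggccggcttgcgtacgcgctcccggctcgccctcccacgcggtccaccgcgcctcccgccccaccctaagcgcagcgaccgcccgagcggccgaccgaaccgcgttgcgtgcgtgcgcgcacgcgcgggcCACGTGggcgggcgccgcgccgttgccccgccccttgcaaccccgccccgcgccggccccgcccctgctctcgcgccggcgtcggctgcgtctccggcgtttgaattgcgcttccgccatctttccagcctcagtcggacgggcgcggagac

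The import receptors held both the largest fall and the one rise. KPNA2, the importin alpha most tied to proliferation, had 4.04, 4.09 and 4.09 in DFMO, against 4.49, 4.51 and 4.46 in Control. It fell by 0.41 (SE 0.03, adjusted p = 1.87e-05), 0.751-fold, the lowest difference of the 60 genes. Of the other importins alpha, KPNA1 fell by 0.11 (adjusted p = 0.0307), and KPNA3, KPNA4, KPNA5 and KPNA6, between -0.05 and 0.08, did not pass. KPNB1, importin beta, which carries the alpha-cargo pair through the pore, had 4.29, 4.24 and 4.29 in DFMO, against 4.44, 4.51 and 4.51 in Control. It fell by 0.21 (SE 0.03, adjusted p = 0.000598), with groups apart. Of the 11 import receptors of the beta family, 7 fell, beside 24.9% of all genes, with IPO8 and IPO7 lowest at -0.29 and -0.27. IPO5, which carries ribosomal proteins and histones, was near the threshold: 3.44, 3.47 and 3.48 in DFMO, against 3.53, 3.57 and 3.56 in Control (log2 -0.09, adjusted p = 0.0223). It did not pass under the trimmed mean scaling (adjusted p = 0.0667) or without DFMO replicate 1 or 2 or Control replicate 2 or 3. TNPO3, which imports SR splicing factors, had 2.49, 2.47 and 2.47 in DFMO, against 2.22, 2.24 and 2.26 in Control. It rose by 0.23 (SE 0.03, adjusted p = 0.000261), 1.18-fold, and did so under each alternative tried; its relative TNPO1, at 0.07, did not pass and TNPO2 fell by 0.15.

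Of 7 exportins, 4 fell, beside 24.9% of all genes. CSE1L, which returns importin alpha to the cytoplasm, had 3.35, 3.36 and 3.42 in DFMO, against 3.73, 3.78 and 3.75 in Control. The fall was 0.37 (SE 0.03, adjusted p = 4.38e-05), 0.774-fold. XPO1, the main exporter of proteins with a leucine-rich signal, had 2.53, 2.50 and 2.52 in DFMO, against 2.80, 2.84 and 2.86 in Control. It fell by 0.32 (SE 0.03, adjusted p = 6.55e-05), 0.802-fold. XPO6, the exporter of actin and profilin, had 2.14, 2.12 and 2.15 in DFMO, against 2.43, 2.48 and 2.45 in Control, a fall of 0.31 (SE 0.03, adjusted p = 7.63e-05). In these 3 genes the highest DFMO library lay below the lowest Control library by more than the range within either group. RANBP17, a relative of XPO7, fell by 0.11 (adjusted p = 0.027), with 0.89, 0.84 and 0.82 in DFMO, against 0.97, 0.97 and 0.94 in Control. Without DFMO replicate 2 or 3 or Control replicate 1 or 2 it did not pass (adjusted p from 0.072 to 0.0814). On its exons with a mean inclusion above 95% alone, it differed by -0.04 (adjusted p = 0.417). XPO5, the exporter of microRNA precursors, stood at 0.05 and XPO4 and XPO7 at -0.05 and -0.04, and none passed. The promoter window of XPO1 (RefSeq, GRCh38.p14, chr2:61537038-61537337, - strand) is shown beside that of RAN for the same reason, again with the E-box in capitals.
XPO1 promoter window: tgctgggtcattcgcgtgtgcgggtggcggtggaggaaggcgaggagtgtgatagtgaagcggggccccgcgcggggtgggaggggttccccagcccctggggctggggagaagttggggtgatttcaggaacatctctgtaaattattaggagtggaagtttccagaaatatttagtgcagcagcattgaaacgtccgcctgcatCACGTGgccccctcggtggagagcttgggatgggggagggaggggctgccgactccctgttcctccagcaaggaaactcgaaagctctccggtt

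The E-box CACGTG, which reads the same on both strands, was searched in the 300-base windows of the 52 member genes that matched RefSeq by symbol, of 60 with a proxy. A gene counted when any of its windows held the E-box, so a gene with more windows could match more easily. It was present in 6 of 28 genes that fell (21.4%: IPO4, IPO7, NUP188, RAN, TNPO2 and XPO1). Of the genes that did not fall, 1 of 24 held it (4.17%: KPNA3). The background was 8.77% of all genes in the promoter table, 13.7% of the 7307 genes with a proxy that matched it and 14.9% of the 1840 matched genes whose proxy fell. KPNA2 and CSE1L, the members with the lowest differences, were not among the genes with a match.

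In the mRNA export group, 3 of 8 measured genes fell, beside 24.9% of all genes. NXF1, the export receptor that carries mRNA through the pore, had 1.5, 1.48 and 1.49 in DFMO, against 1.63, 1.72 and 1.70 in Control. It fell by 0.19 (SE 0.03, adjusted p = 0.00163) and the groups did not overlap. The THO subunits THOC2 and THOC6 fell by 0.14 and 0.12. THOC1, THOC3, THOC5 and THOC7, between -0.07 and 0.02, did not pass, nor did NXT1, the partner of NXF1, at 0.01 on 1 exon event. RANBP9 and RANBP10, which share the name but belong to an E3 ligase complex, stood at -0.15 (adjusted p = 0.00908) and -0.01. NUP50 and the antisense gene NUP50-AS1 had intron events only and no proxy.

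**Figure D2:**
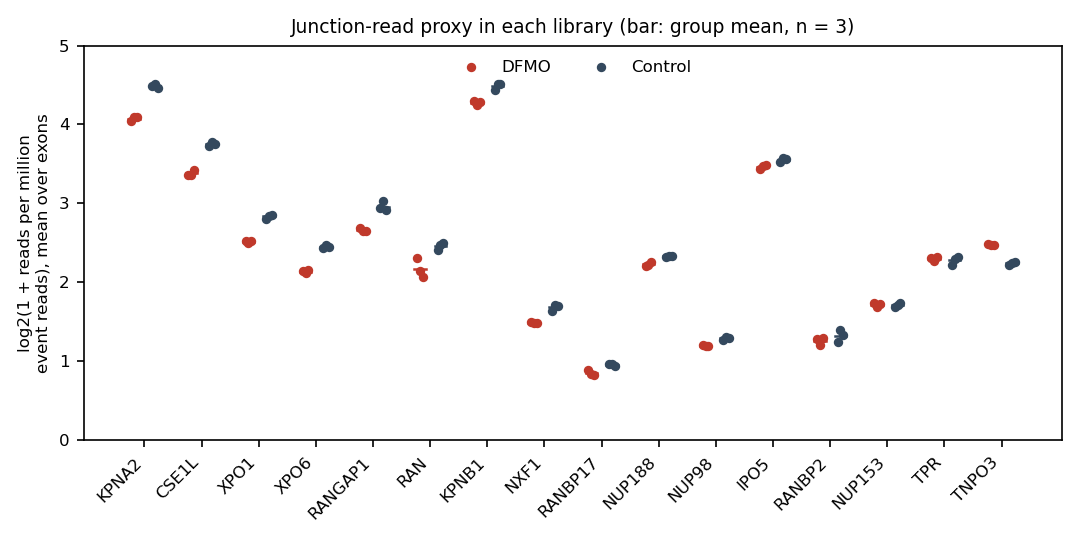
Junction-read proxy (y axis, log2 of 1 plus scaled reads, mean over exon events) of 16 named genes in each library, DFMO left of Control, with the group mean as a bar. In KPNA2, CSE1L, XPO1 and XPO6 the 3 DFMO points lie below the 3 Control points, in TNPO3 above them, and in TPR and NUP153 the points mix.

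Splicing of the same genes was nearly constitutive, and few events moved. Of the 4155 member events, 2343 had a mean percent below 5 and 1701 above 95. The other 111 lay between, and 102 of them, in 34 genes, were tested after leaving out 9 mirrored forms of splice sites with 2 choices. In events with more choices 2 mirrored acceptor pairs, in NUP214 and NXF1, stayed in, so at most 18 of the 20 tested acceptor forms were distinct. Further pairs, in TNPO2, THOC2 and RANBP10, came close to mirroring each other and also stayed in. With 1 form per mirrored pair still none was called. Calls needed an adjusted p below 0.05 and 10 points or more between the group means. They were met by 1 of 102 member events, against 2.96% of the 16348 events tested in the table. It was a RANBP17 exon, so 1 of 50 exons was called higher (background 2.71%) and 0 lower (background 0.747%). At an adjusted p below 0.05 whatever the size, 2 of 50 exons passed, the other in NUP54, against a background of 5.72%. None of 23 introns (background 3.8%), 20 acceptor forms (background 1.16%) or 9 donor forms (background 2.28%) was called by limma. At an unadjusted p below 0.05 there were 10 exons (background 20.6%), 4 introns (22.1%), 0 acceptor forms (12.5%) and 0 donor forms (14.9%). The quasi-binomial test also called 0 in each of these last 3 classes. Whatever the test, the groups did not overlap in 22 of the 102 member events (21.6%). That share was not computed over all tested events, so a lack of overlap is given below as description only. Of the 50 exons 35 were included more in DFMO (70.0%, against 60.3% of all tested exons), with a median of 2.96 points, against 1.24 for all. For introns 15 of 23 were retained more (65.2%, against 53.2%), with a median of 0.94 points, against 0.33. Reads at the 2 ends were balanced in every library for 8 of the 23, beside 1725 of all 3683 tested introns. Of these 8, 7 were retained more, beside 953 of the 1725. Whether reads in the other introns came from retained introns was not tested.

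**Figure D3:**
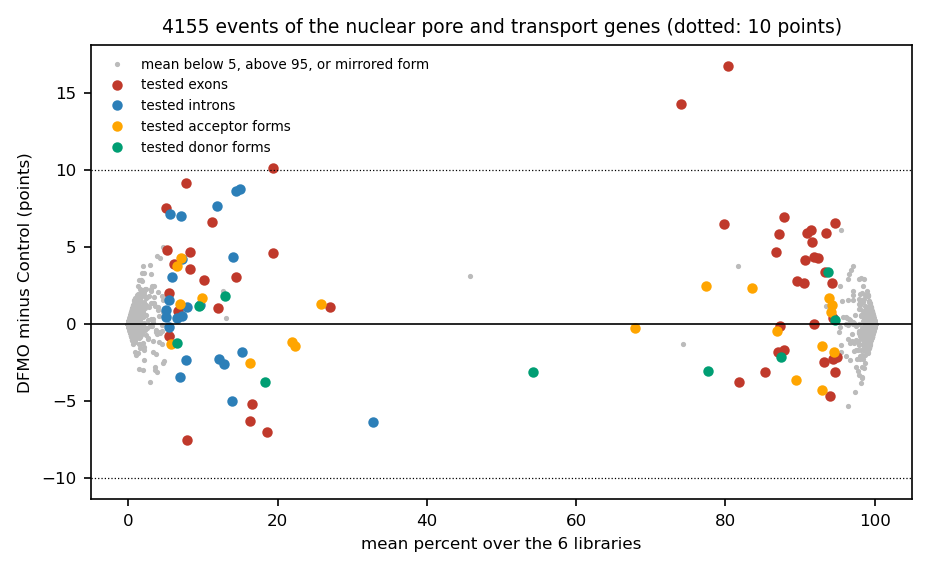
Difference in percent (DFMO minus Control, points, y axis) against the mean percent over the 6 libraries (x axis) for all 4155 member events, with the 102 tested events coloured by class. Most events sit at either end of the x axis and near 0, and 3 exons, 2 of RANBP17 and 1 of RANBP3, lie beyond the dotted line at 10 points.

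NUP54, an FG nucleoporin of the central channel that binds NUP62 and NUP58, included a 144-nt exon more often with DFMO. Inclusion was 98.1, 99.3 and 96.5% in DFMO, against 91.7, 90.4 and 92.2% in Control. The groups did not overlap, and the means were 98.0 ± 1.4% and 91.4 ± 0.95% (difference 6.53 points, adjusted p = 0.0262). Reads that skip the exon numbered 3, 1 and 6 in DFMO, against 13, 12 and 16 in Control, and 237 to 394 reads covered the event in each library. Without 1 library the difference was 5.87 to 7.26 points and the adjusted p 0.018 to 0.0854, over 0.05 without DFMO replicate 1 or any Control library. Without the variance trend it was 0.136. The exon lies at chr4:76144149-76144292 on the - strand, is coding in GENCODE 29, and has a length that keeps the frame. Its sequence, from the GENCODE 29 transcripts, is shown because it encodes part of the FG repeats: capitals mark 5 Phe-Gly codon pairs in frame.
NUP54 144-nt exon: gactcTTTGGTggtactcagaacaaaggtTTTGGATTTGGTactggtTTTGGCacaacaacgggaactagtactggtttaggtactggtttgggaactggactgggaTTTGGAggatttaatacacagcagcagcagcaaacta
The other 5 tested NUP54 exons differed by -3.78 to 0.03 points and did not pass. The most distant of them was a 221-nt exon that matches no annotated exon, with 79.9 ± 0.77% in DFMO and 83.7 ± 1.3% in Control (adjusted p = 0.38). NUP58, its partner, had a 36-nt coding exon at 93.2 ± 0.56% in DFMO and 96.3 ± 1.7% in Control (adjusted p = 0.168), also without overlap.

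RANBP17 carried 12 of the 50 tested exons, more than any other member gene, and the one called event; 7 of the 12 were higher in DFMO and 5 lower. Its 64-nt exon (chr5:171183167-171183230, + strand, coding, frame-shifting length) was included at 87.9, 87.5 and 90.5% in DFMO, against 78.6, 70.6 and 66.5% in Control. The difference was 16.7 points without overlap (adjusted p = 0.0425), but the adjusted p was 0.124 without the variance trend, 0.06 with the replicate block and 0.108 when events of any mean percent entered the fit. Skipping reads numbered 8, 6 and 4 in DFMO, against 17, 16 and 31 in Control. The call was lost without any one of the 6 libraries (14.0 to 20.1 points, adjusted p from 0.0511 to 0.16). The 81-nt exon before it in the gene (chr5:171171206-171171286) had 79.1, 80.95 and 83.7% in DFMO, against 69.7, 73.2 and 58.0% in Control. It differed by 14.3 points without overlap and did not pass (adjusted p = 0.0887). Both sequences, from the GENCODE 29 transcripts, are shown as the 2 exons with the largest differences among all members; no part is in capitals.
RANBP17 81-nt exon: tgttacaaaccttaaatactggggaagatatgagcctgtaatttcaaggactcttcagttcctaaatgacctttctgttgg
RANBP17 64-nt exon: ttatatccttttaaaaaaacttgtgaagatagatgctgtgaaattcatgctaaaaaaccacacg
The exons of 109, 104, 89, 108 and 83 nt that follow were 2.64 to 6.07 points higher in DFMO with overlapping groups (adjusted p from 0.325 to 0.613). These exons and the 81-nt and 64-nt exons before them can share skipping reads, so they are not separate observations. The 181-nt exon near the start of the gene, annotated in a transcript subject to nonsense-mediated decay, was the one lower exon without overlap. It had 1.10, 4.55 and 6.67% in DFMO, against 11.1, 16.7 and 7.14% in Control, on 23 to 46 reads per library (adjusted p = 0.415). The exons of 120, 41, 60 and 167 nt differed by -4.66, -0.79, -6.30 and -2.25 points with overlapping groups, and none passed.

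**Figure D4:**
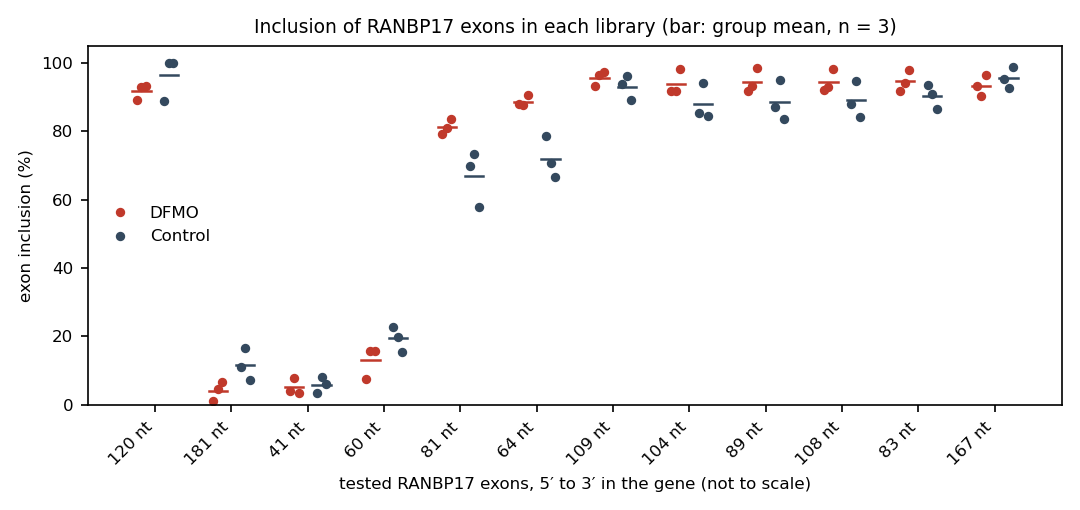
Inclusion (%, y axis) of the 12 tested RANBP17 exons in gene order (x axis, not to scale) in each library, DFMO left of Control, with group means as bars. The 81-nt and 64-nt exons have all DFMO points above all Control points, and the 181-nt exon has them below.

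The remaining exons with groups apart did not pass the test. In THOC1, a 1531-nt exon that matches no annotated exon had 10.1, 17.7 and 9.09% in DFMO, against 2.26, 3.70 and 3.51% in Control (adjusted p = 0.0708). In RANBP3, a 204-nt coding exon had 24.9, 20.7 and 27.7% in DFMO, against 16.8, 12.6 and 13.7% in Control (10.1 points, adjusted p = 0.134). The 156-nt exon after it, known from a decay-prone and a noncoding transcript, was likewise higher, at 14.5 ± 2% in DFMO and 7.93 ± 2.3% in Control. Both RANBP3 exons can share skipping reads, so they are not separate observations. XPO6 had a 30-nt exon, known from a noncoding transcript, at 10.5, 8.09 and 7.82% in DFMO, against 1.6, 0.31 and 1.87% in Control. The groups were apart, on 56 to 96 reads per library (adjusted p = 0.143). A 279-nt exon of NUP210, the large membrane glycoprotein of the pore, stood at 7.5 ± 2.7% in DFMO and 2.73 ± 0.68% in Control (adjusted p = 0.148). THOC2 went the other way, with a 66-nt coding exon at 16.8, 13.1 and 11.9% in DFMO, against 17.0, 17.6 and 22.6% in Control (adjusted p = 0.359).

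**Figure D5:**
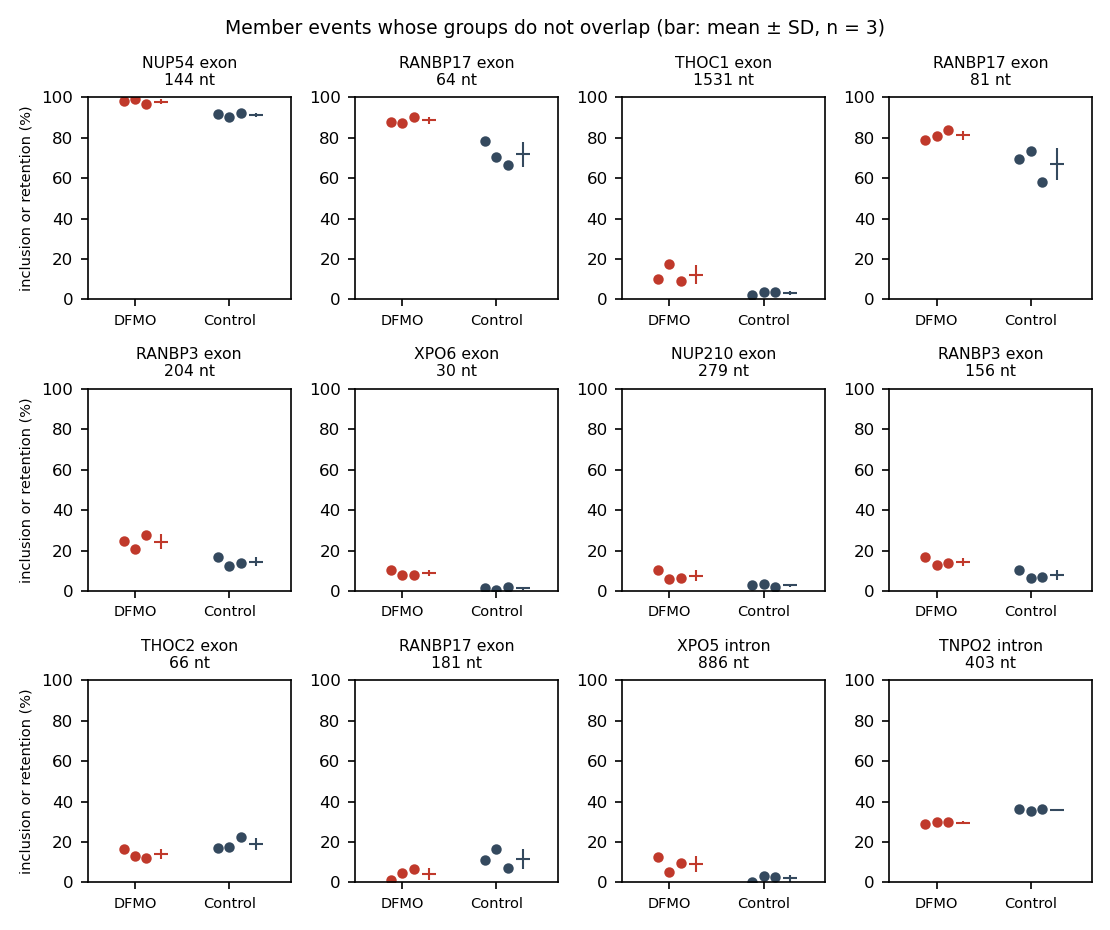
Exon inclusion or intron retention (%, y axis) in each library for 12 named events of the 22 tested member events whose groups do not overlap. DFMO is left of Control, with mean ± SD. Adjusted p was below 0.05 for the NUP54 144-nt and the RANBP17 64-nt exon and not for the other 10.

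Introns of these genes were spliced nearly to completion: 1197 of 1220 had a mean retention below 5%. The smallest p among the 23 tested was that of an 886-nt intron of XPO5 between coding exons (chr6:43526748-43527633). It was retained at 12.7, 5.15 and 9.57% in DFMO, against 0, 3.31 and 2.73% in Control, without overlap (7.12 points, adjusted p = 0.0518). The 0% rests on 79 reads. It passed on the percent scale (adjusted p = 0.0192), by the quasi-binomial test (0.00912) and among introns with balanced reads at both ends (0.0466). It did not pass without the variance trend, with the replicate block or with an offset of 0.1. Nor did it pass whichever library was left out (adjusted p from 0.0568 to 0.253). TNPO2, a transportin that imports hnRNPs, had a 403-nt intron of the 5′ UTR at 28.8, 29.9 and 30.04% in DFMO, against 36.3, 35.3 and 36.2% in Control. The groups were tight and apart, but the difference of -6.36 points did not pass (adjusted p = 0.229). Of the 4 tested TNPO2 introns, 2 were higher and 2 lower. The other lower one, of 82 nt, had 5.83, 3.10 and 6.65% in DFMO, against 10.5, 8.74 and 6.71% in Control, without overlap (adjusted p = 0.0558). A 744-nt intron of THOC1 was higher without overlap, at 9.27 ± 2.3% in DFMO and 5.05 ± 1.8% in Control (adjusted p = 0.275). These 82-nt and 744-nt introns were picked after their values were seen. For splice-site choice the smallest p-values were a TNPO2 acceptor form adding 3 nt, at 8.35 ± 1.7% in DFMO and 4.56 ± 3.1% in Control, and a RANBP3 donor form adding 15 nt, at 52.7 ± 0.34% in DFMO and 55.8 ± 4.2% in Control. Neither passed (adjusted p = 0.468 and 0.762).

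The central members with tested events gave small differences. NUP98 had a 230-nt coding exon at 94.98 ± 2.6% in DFMO and 91.6 ± 2.4% in Control (adjusted p = 0.377), and its 3 donor forms differed by -3.01, 1.82 and 1.19 points. Its introns of 3475, 5936 and 7130 nt differed by -4.96, -1.79 and -0.163 points, with overlapping groups. NUP153 had a 54-nt coding exon at 87.0 ± 0.53% in DFMO and 88.7 ± 2.6% in Control, and an acceptor form 0.777 points higher. The 2 mirrored acceptor forms of NXF1 differed by 1.27 points in opposite directions, and a 947-nt intron of TPR by 0.407 points. None of these passed. XPO1, KPNB1, KPNA2, RAN, RANBP2 and CSE1L had no tested event.

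Outside the range of 5 to 95%, 4044 member events had a median absolute difference of 0 points, and 94.3% of them differed by under 1 point. The largest was 6.09 points, in a 141-nt exon of NUP98 with 98.5 ± 1.4% in DFMO and 92.4 ± 2.9% in Control. Only 2 events differed by 5 points or more, and the other was lower with DFMO. It was a 101-nt exon of NUP85 with 93.8 ± 4.4% in DFMO and 99.1 ± 1.6% in Control. Neither passed in a fit with no filter on the mean percent (adjusted p = 0.309 for NUP98 and 0.0603 for NUP85). The events that follow were picked after their values were seen, and their adjusted p comes from a fit with no filter on the mean percent. In CSE1L, a 2012-nt intron was retained at 2.20, 1.41 and 1.89% in DFMO, against 0.27, 0.20 and 0.20% in Control (adjusted p = 0.00402). A 1023-nt intron of CSE1L had 0.617 ± 0.23% in DFMO and 0.0267 ± 0.046% in Control (adjusted p = 0.0242). That rests on few reads: at the 2 intron ends 1 and 6, 2 and 10, and 5 and 3 in DFMO replicates 1 to 3. In Control replicates 1 to 3 they were 0 and 0, 0 and 0, and 1 and 1. The CSE1L acceptor form adding 173 nt was used at 1.05 ± 0.76% in DFMO and 4.83 ± 1.8% in Control (adjusted p = 0.0321). A 64-nt exon of XPO1 had 8.09, 5.94 and 5.28% in DFMO, against 1.69, 2.63 and 2.08% in Control, and did not pass (adjusted p = 0.097). A 63-nt exon of RANGAP1 had 7.12, 4.94 and 6.10% in DFMO, against 1.14, 1.01 and 2.87% in Control (adjusted p = 0.0701). Just inside and outside the limits lay the 30-nt exon of XPO6, at a mean of 5.02%, a 1801-nt intron of NXF1, at 4.69%, a 158-nt exon of THOC2, at 94.9%, and a NUP98 donor form adding 130 nt, at 95.3%.

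Partners of these genes with other symbols were set beside them. Of 21 measured pore and transport partners, 4 fell and 1 rose, where 24.9% of all genes fell and 20.5% rose. RAE1, the partner of NUP98 in mRNA export, fell by 0.18 (adjusted p = 0.00108) and RCC1, the exchange factor of RAN, by 0.14, whereas NCBP2, of the cap-binding complex, rose by 0.26. None of their 36 tested events passed an adjusted p of 0.05 (background 5.34% of all tested events). Of 13 measured mRNA export partners, 6 fell and 1 rose, beside the same shares of 24.9% and 20.5%. DDX39B, the TREX helicase, rose by 0.34 (SE 0.03, adjusted p = 5.26e-05), and ALYREF, the adaptor that hands mRNA to NXF1, fell by 0.20. Of 30 tested events of this list 5 passed, all introns, and 0 were called at 10 points; the background of passing was 5.34% of all tested events and 8.58% of introns. An intron of DDX39B of 1285 nt was retained at 8.55, 9.32 and 7.84% in DFMO, against 16.4, 24.1 and 13.6% in Control (adjusted p = 0.045), and one of 2455 nt at 24.2 ± 0.96% in DFMO and 30.2 ± 1.9% in Control (adjusted p = 0.000487). A 3258-nt intron of MCM3AP, the scaffold of the TREX-2 complex, had 14.6, 11.5 and 22.1% in DFMO, against 1.84, 5.51 and 12.5% in Control, with 1 Control library inside the DFMO range (adjusted p = 0.0234). A 1641-nt intron of CHTOP, another TREX protein, was higher, at 27.0 ± 3.3% in DFMO and 19.9 ± 2.4% in Control (adjusted p = 0.00187). DDX39B has a read-through transcript with its neighbour ATP6V1G2, whose reads cannot be told apart here.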

How the data were processed

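Per the series' design text, stranded RNA libraries of SKNBE2 cells were sequenced with single reads of 100 nt, and the build was GRCh38 per the submitters' processing notes. Neither aligner nor quantifier was given in the sources used here. The authors deposited 1 table that gives each library's percent for each splicing event, with a text of coverage score and reads. The deposited percents lay within 0.5 points of those recomputed from the reads.

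The fit took log2 odds of inclusion, with 0.5 added to inclusion and exclusion reads, and used limma (version 3.58.1, R 4.3.3; robust, trend on the counting variance). Two-sided p-values received a Benjamini-Hochberg adjustment per event class (exons, introns, acceptors, donors), over events with at least 10 reads in every library and a mean percent of 5 to 95. Of splice-site events with exactly 2 forms, the first, which mirrors the second, was left out, a choice made after the table was seen; in events with more forms, pairs whose percents summed to 100 within 0.05 points stayed in the main test. The proxy used limma with a trend over 9232 genes. Precision is set by the reads per event, which are given beside the values for some events only. In total reads per exon event, pairs of libraries of 1 group varied by 2.01 to 2.36 times the counting variance. That ratio does not measure the spread of the percents. Exons and introns were matched to GENCODE 29 and promoters to RefSeq by symbol. Both ends matched for 99.9% of member introns, 81.9% of member exons and 37 of the 50 tested exons. The fit was tested on simulated data. Figures were drawn in Python.

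The members, roles and partner lists were chosen with earlier results of these data known. Named were events at an adjusted p below 0.05, up to 10 of the largest further differences without overlap, the smallest p per class, the 5 highest and 5 lowest passing proxy differences, 10 central genes, up to 4 events or genes per partner list and values at the limits. Other genes within a role are given for completeness and were picked after their values were seen. Alternatives were no trend, percent scale, a quasi-binomial test, other offsets, filters, adjustments, scalings and pseudocounts, intron events, the replicate block and leaving out each library, plus, added after seeing the data, exons above 95% only and 1 form per mirrored pair.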

Additional observations from a re-analysis of the deposited data

How the results depend on the processing

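The number of member exons called higher, 1 in the main test, was 0 without the variance trend, 0 with no filter on the mean percent, 0 with the replicate block, 0 to 0 when each library was left out, and 2 with no size threshold. With no size threshold the proxy calls were 1 higher and 30 lower, against 0 and 0 at 1.5-fold or more. All other counts of called members kept their value within 1.5 times under every alternative run. Leaving out each library gave 25 to 27 genes that fell and 1 that rose; intron events gave 37 of 61 and the replicate block 28 of 60. Replicate numbers did not pair the libraries: deviations of same-numbered libraries correlated at -0.0202, -0.00217 and -0.00697, and 0 libraries correlated best with their own number. The RANBP17 64-nt exon had an adjusted p of 0.06 with the block, 0.124 without the trend and 0.108 without the filter, and the NUP54 exon 0.136 without the trend; the cause was not tested. Signs turned in values near 0, none of which passed in any alternative. When each library was left out, NXF1 acceptor forms ran from -3.43 to 0.598 and from -0.598 to 3.43 points, the NUP153 acceptor from -0.359 to 1.97, a NUP98 donor from -0.0515 to 3.28, its 5936-nt and 7130-nt introns from -3.47 to 1.23 and from -1.47 to 0.983, the TPR intron from -1.004 to 2.36, and the proxies of NUP153 and TPR from -0.0056 to 0.0205 and from -0.0083 to 0.0419. The NUP153 proxy was -0.0021 on intron events and -0.0008 on exons above 95%. Of the other values, 648 kept their direction and side of the threshold, 35 lost the threshold and 3 passed it. Depth limits events with few skipping or retained reads, such as the NUP54 and XPO5 events.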

Other observations

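The nuclear lamina and envelope, which holds the pores, was read from 14 measured genes and 17 tested events. Of the genes, 5 fell and 4 rose in the proxy, where 24.9% of all genes fell and 20.5% rose. TMPO, a lamina-associated protein, fell by 0.36 (SE 0.03, adjusted p = 9.24e-05), and LBR, the lamin B receptor, by 0.27; TOR1AIP1, an activator of torsin, rose by 0.18. Of the events, 3 were called, all lower, where 2.96% of all tested events were called in either direction. SUN1, which links the lamina to the cytoskeleton and is known to associate with pores, included a 198-nt exon at 74.7, 70.8 and 75.6% in DFMO, against 90.8, 87.2 and 90.2% in Control (adjusted p = 0.000743). Its 84-nt exon had 72.9, 67.4 and 71.7% in DFMO, against 88.0, 84.3 and 86.9% in Control (adjusted p = 0.000949), and both exons had groups far apart. Both exons lie close together in the gene and can share skipping reads, so they are not separate observations. For a 744-nt intron of LMNA, the gene of lamins A and C, the retention percent was 55.6, 54.6 and 48.6% in DFMO, against 74.9, 68.98 and 63.0% in Control (adjusted p = 3.61e-07). Whether its intron reads came from a retained intron or from transcripts that end within it was not tested. The difference between this list and the pore genes was not tested.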
